A study of Mus musculus with 6 samples.

Results

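The genes examined were 33 markers of the blood vessels and supporting stroma of the kidney, listed by symbol and looked up in a table of 24434 gene symbols. All 33 were in the table, and all 33 passed the filter on low counts that left 16373 genes for testing. By known cell type, 21 mark endothelium, 9 mark mural cells (smooth muscle, pericytes and mesangial cells) and 3, Pdgfra, Pdgfrb and Angpt1, are shared by mural cells and fibroblasts. Polyadenylated RNA was sequenced from whole kidneys of mice on normal chow, in 3 libraries with the genotype label db/db and 3 with the label db/m. The db/db mice, the series' diabetic model, carry the db allele of the leptin receptor on both chromosomes in every cell, and the db/m mice are its controls. The sources used here do not give sex, age or strain background. They also do not say whether libraries of a group are from separate animals, so a p-value here reflects differences among these 6 libraries, which may be technical.

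Kidney endothelium grows and survives under vascular endothelial growth factor (VEGF), which podocytes and tubule cells release and which endothelial cells sense through receptor kinases. A second system, the angiopoietins and the receptor Tek (TIE2), steadies mature vessels, with Angpt1 coming from mural cells and acting on endothelium. In the other direction endothelial cells release platelet-derived growth factor B, which draws mural cells carrying Pdgfrb to the vessel wall and, in the glomerulus, makes the mesangium possible. The comparison asks whether RNA of these cells made up a different share of kidney RNA in db/db mice. In bulk RNA, fewer cells of a type and less RNA per cell cannot be told apart.

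Total counts were 27023129 to 29868789 in the db/db libraries and 25937756 to 35931140 in the db/m libraries. Every member had at least 59 counts in every library, so none was near the floor of 3 counts, which was 0.0835 to 0.116 CPM. CPM are counts relative to library size after TMM scaling, except where unscaled total counts are named. Libraries of 1 group differed far beyond sampling noise, with a chi-square per degree of freedom of 15.9 to 59.5, and all 6 were used as replicates. The leptin receptor gene Lepr stood at 4.44 ± 1.67 CPM under the db/db label and 3.01 ± 0.566 CPM under the db/m label (SD, n = 3 each) and did not pass the test (adjusted p = 0.246). The db allele changes splicing of the receptor's long form, which a gene-level count need not show, so groups are named by their labels. The proximal tubule markers Lrp2, Cubn, Slc34a1, Slc5a2 and Slc5a12 together held 8231 to 10610 CPM in db/db and 6238 to 8763 CPM in db/m. Of unscaled total counts they held 7555 to 9561 CPM in db/db and 6864 to 9303 CPM in db/m. Slc34a1 made up most of each sum, at 6951 ± 1073 CPM in db/db and 4923 ± 1303 CPM in db/m. Fitted values were 3 positive and 2 negative, and only Slc5a12 passed the edgeR test, as lower.

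The vascular and stromal markers as a whole held overlapping shares of RNA in the groups. The 33 genes together took 995, 1025 and 885 CPM of unscaled total counts in the db/db libraries, against 987, 855 and 1260 in the db/m libraries. On that scale the db/db values all lay inside the db/m range, and the ratio of means was 0.937. With counts divided by the TMM-scaled library size, which allows for the share of each library that a few abundant genes take, the 33 genes took 1079, 1138 and 964 CPM in db/db and 929, 777 and 1123 CPM in db/m. The ratio turned to 1.12, db/db replicate 2 was above all db/m libraries, and the groups still overlapped. Of unscaled total counts, the 21 endothelial genes took 708, 765 and 637 CPM in db/db and 666, 613 and 864 in db/m, a ratio of means of 0.985. The 9 mural genes took 235, 212 and 210 CPM in db/db and 272, 197 and 328 in db/m, a ratio of 0.825, and the groups again overlapped. The ratio for the endothelial genes became 1.18 with the TMM-scaled library size, and that of the mural genes became 0.989. No test was made on these sums, because the genes were chosen with earlier results of these data known.

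**Figure D1:**
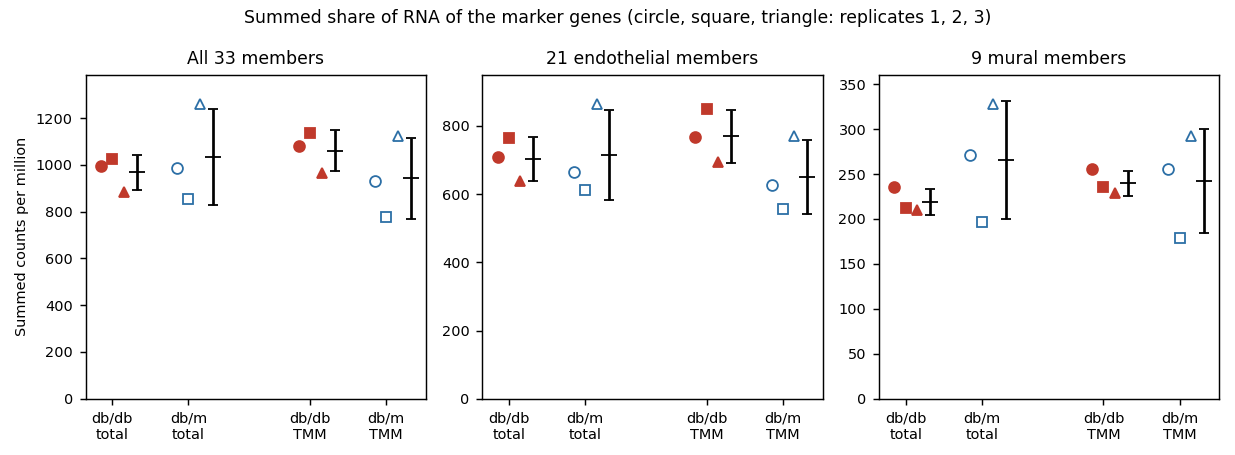
Summed CPM of all 33 markers, the 21 endothelial and the 9 mural markers, per library, as a share of total counts or of the TMM-scaled library size, with group mean and SD (n = 3) as black bars. The 3 db/db points of all markers, 885 to 1025 CPM of total counts, lie inside the db/m range of 855 to 1260, while with TMM scaling db/db replicate 2, at 1138, is above the db/m range.

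Gene by gene, 1 of the 33 markers passed the test. Robo4 rose in db/db and no marker fell, whereas 24.0% of all tested genes were called, 13.1% higher and 10.8% lower (edgeR quasi-likelihood test, adjusted p below 0.05). The DESeq2 Wald test and limma-voom also called 0 markers lower, with 6 and 1 called higher. With total counts only, edgeR called 3 lower. When p below 0.05 was read without adjustment, edgeR with TMM scaling gave 0 lower and 5 higher markers, Robo4, Pdgfb, Cdh5, Kdr and Des. The groups did not overlap for 3 markers, Robo4, Cdh5 and Pdgfb, all higher in db/db, against 44.6% of all tested genes. The difference between the markers and other genes was not tested. The median log2 fold change of the markers was 0.14, beside -0.06 over all genes tested, and 23 of the 33 fitted values were positive. With total counts only, 9 of the 33 were positive, and the medians were -0.12 for the markers and -0.32 for all genes. With TMM scaling, the 95% interval of the log2 fold change lay within -1 to 1 for 27 markers. That is within a 2-fold change in either direction.

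**Figure D2:**
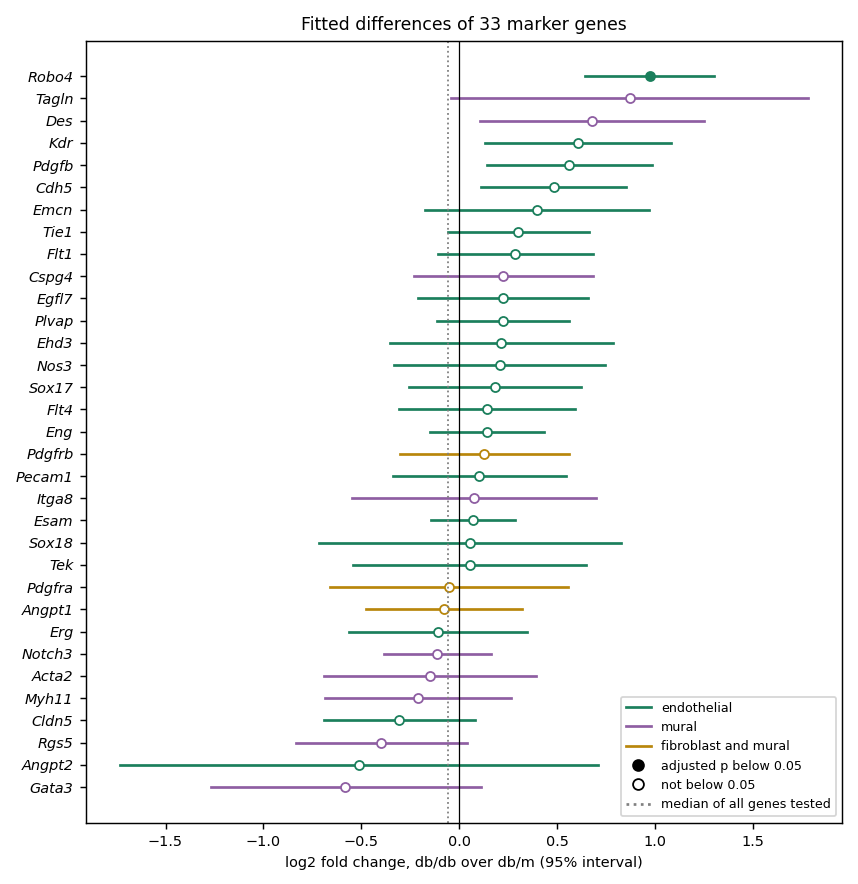
Fitted log2 fold change (db/db over db/m) of each marker with its 95% interval, not adjusted for the number of genes, ordered by size. Robo4 at 0.97 is the filled point, the 1 marker with an adjusted p below 0.05, and the intervals of 28 markers include 0.

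Robo4, a roundabout family receptor found on endothelial cells that is known to stabilise vessels, was about doubled in db/db kidneys. It measured 22.6, 25.1 and 19.1 CPM in the db/db libraries, against 12.2, 9.97 and 11.9 CPM in the db/m libraries. The lowest db/db value was above the highest db/m value by more than the whole range of the db/m group. The means were 22.2 ± 2.99 CPM in db/db and 11.4 ± 1.22 CPM in db/m (SD, n = 3 each), a 1.96-fold rise with a log2 fold change of 0.97 (SE 0.14, 95% interval 0.64 to 1.3, adjusted p = 0.00391). The call held in all 16 alternative settings, with log2 fold changes of 0.71 to 1.11 and adjusted p of 1.62e-07 to 0.0252. The gene lies at chr9:37401897-37415115 on the plus strand of GRCm38 (GENCODE M21).

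The promoter of Robo4 is shown with those of 2 endothelial receptors that missed the test, Kdr and Tie1, and of the pericyte gene Rgs5, as the start sites of the marker that rose and of markers that did not pass. Each is 250 bases before to 50 after the RefSeq start on the gene's own strand (GRCm38.p6), at chr9:37401722-37402021 (plus), chr5:75978406-75978705 (minus), chr4:118489800-118490099 (minus) and chr1:169655251-169655550 (plus) in that order. Capitals mark GGAAG, the core that ETS family factors such as Erg bind, or its reverse complement CTTCC, counted on both strands.
Robo4: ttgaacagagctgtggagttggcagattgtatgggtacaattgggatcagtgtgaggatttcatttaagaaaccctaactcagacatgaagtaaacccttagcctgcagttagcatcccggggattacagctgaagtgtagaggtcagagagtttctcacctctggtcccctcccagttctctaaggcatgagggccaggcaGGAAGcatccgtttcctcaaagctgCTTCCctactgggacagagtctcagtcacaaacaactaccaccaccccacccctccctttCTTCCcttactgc
Kdr: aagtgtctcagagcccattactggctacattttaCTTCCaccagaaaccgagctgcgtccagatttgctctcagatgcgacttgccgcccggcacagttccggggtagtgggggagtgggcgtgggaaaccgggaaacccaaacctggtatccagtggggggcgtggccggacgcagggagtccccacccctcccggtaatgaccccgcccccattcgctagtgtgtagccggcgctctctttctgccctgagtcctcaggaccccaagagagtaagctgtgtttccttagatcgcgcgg
Tie1: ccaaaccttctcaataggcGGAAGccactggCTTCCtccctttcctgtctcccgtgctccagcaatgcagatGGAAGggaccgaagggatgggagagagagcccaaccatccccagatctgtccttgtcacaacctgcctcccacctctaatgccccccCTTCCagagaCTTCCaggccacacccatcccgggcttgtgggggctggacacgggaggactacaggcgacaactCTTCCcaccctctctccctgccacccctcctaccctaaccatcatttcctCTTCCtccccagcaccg
Rgs5: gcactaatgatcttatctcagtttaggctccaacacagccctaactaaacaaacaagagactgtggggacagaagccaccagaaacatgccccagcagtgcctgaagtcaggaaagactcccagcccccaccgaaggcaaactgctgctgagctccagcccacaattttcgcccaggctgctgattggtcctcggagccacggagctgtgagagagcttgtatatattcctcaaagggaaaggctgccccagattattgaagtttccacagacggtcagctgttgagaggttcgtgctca
The letters occurred 3 times in the Robo4 window, 1 time in Kdr, 7 times in Tie1 and 0 times in Rgs5. RefSeq held 24 such windows for 20 of the 33 markers, and 13 of the 24 (54.2%) had the letters, against 71.4% of all 32851 windows, so their presence does not set the markers apart.

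The 3 VEGF receptors all had positive fitted values and none passed. Kdr (VEGFR2), the main signalling receptor for VEGF-A, measured 56.4, 60.3 and 42.2 CPM in db/db and 35.8, 26.1 and 42.6 CPM in db/m. The groups overlapped through db/db replicate 3 and db/m replicate 3, and the log2 fold change was 0.61 (SE 0.20, adjusted p = 0.0685). Flt1 (VEGFR1), which binds VEGF-A tightly and signals weakly, averaged 53.6 ± 10.4 CPM in db/db and 44.0 ± 6.82 CPM in db/m (adjusted p = 0.252). Flt4 (VEGFR3), the receptor for VEGF-C, best known from lymphatic vessels, averaged 10.4 ± 1.73 CPM in db/db and 9.47 ± 1.70 CPM in db/m (adjusted p = 0.618). The interval for Kdr, not adjusted for the number of genes, was 0.13 to 1.08 on the log2 scale. It lay above 0 and reached past a doubling, but Kdr was not called after adjustment.

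Among the angiopoietins and their receptors none was called, and there were 2 positive and 2 negative fitted values. Tek, the angiopoietin receptor, averaged 21.8 ± 5.88 CPM in db/db and 20.98 ± 5.71 CPM in db/m, and Tie1, its co-receptor, 36.4 ± 5.43 and 29.6 ± 4.58 CPM. Angpt1, the activating ligand, averaged 6.09 ± 0.525 CPM in db/db and 6.42 ± 0.742 CPM in db/m, a log2 fold change of -0.08 with an interval of -0.48 to 0.32. Angpt2, which endothelial cells store and which can oppose Angpt1, was the least even of all the markers. It measured 8.06, 2.34 and 9.16 CPM in db/db and 6.21, 7.26 and 14.5 CPM in db/m. Its low value in db/db replicate 2 and high value in db/m replicate 3 gave an interval of -1.73 to 0.71 on the log2 scale, the widest of the 33.

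The junction and surface genes of endothelium numbered 11, with 10 positive fitted values and 1 called, Robo4. Cdh5, the VE-cadherin of endothelial junctions, measured 22.4, 22.2 and 22.5 CPM in db/db, against 16.2, 12.6 and 19.3 CPM in db/m. All db/db libraries were above all db/m libraries, but the log2 fold change of 0.48 (SE 0.16) had adjusted p = 0.0633. Pecam1 (CD31), the usual stain for all endothelium, measured 46.5, 45.2 and 42.0 CPM in db/db and 37.3, 32.3 and 55.0 CPM in db/m. The db/m values lay on both sides of the db/db values. Its interval was -0.34 to 0.55 on the log2 scale (adjusted p = 0.719).

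Markers of different capillary beds were not called. Plvap, a protein of the diaphragms that span the pores of peritubular capillaries, measured 156, 149 and 138 CPM in db/db and 108, 115 and 156 CPM in db/m (log2 fold change 0.22, SE 0.14, adjusted p = 0.29). Ehd3, which among kidney vessels marks glomerular endothelium, averaged 32.4 ± 8.36 CPM in db/db and 28.0 ± 7.45 CPM in db/m (adjusted p = 0.547). Emcn, a sialomucin of capillary and venous endothelium, measured 62.4, 61.7 and 60.2 CPM in db/db and 39.8, 32.8 and 67.5 CPM in db/m. The db/db values were within a few CPM of each other, while db/m replicate 3 was above all of them and both other db/m libraries were far below. The adjusted p of Emcn was 0.27.

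Of the other surface genes, Eng (endoglin), a co-receptor for bone morphogenetic proteins, averaged 112 ± 13.5 CPM in db/db and 101 ± 12.2 CPM in db/m. Esam, a junctional adhesion molecule, had the tightest estimate of all 33, with 29.96 ± 2.31 CPM in db/db, 28.5 ± 0.922 CPM in db/m and an interval of -0.14 to 0.29 on the log2 scale. Egfl7, a secreted endothelial matrix protein, averaged 52.9 ± 13.0 CPM in db/db and 45.3 ± 6.57 CPM in db/m. Nos3, the endothelial nitric oxide synthase, measured 6.70, 11.8 and 10.6 CPM in db/db and 9.55, 7.39 and 8.33 CPM in db/m (log2 fold change 0.21, SE 0.23, adjusted p = 0.541). Cldn5, the endothelial claudin, was the 1 gene of this class with a lower fitted value, at 8.95 ± 1.58 CPM in db/db and 11.1 ± 0.974 CPM in db/m (adjusted p = 0.21).

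The transcription factors that set endothelial identity held 0 calls, and 0 at an unadjusted p below 0.05. Erg, an ETS factor needed for endothelial junctions, averaged 9.17 ± 1.31 CPM in db/db and 9.90 ± 2.02 CPM in db/m. Sox17, linked to arterial endothelium, averaged 9.60 ± 2.17 CPM in db/db and 8.47 ± 0.225 CPM in db/m. Sox18, linked to lymphatic and vascular development, measured 4.77, 12.4 and 9.19 CPM in db/db and 10.2, 7.92 and 7.31 CPM in db/m, with db/db replicate 1 lowest and db/db replicate 2 highest of all 6 libraries.

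**Figure D3:**
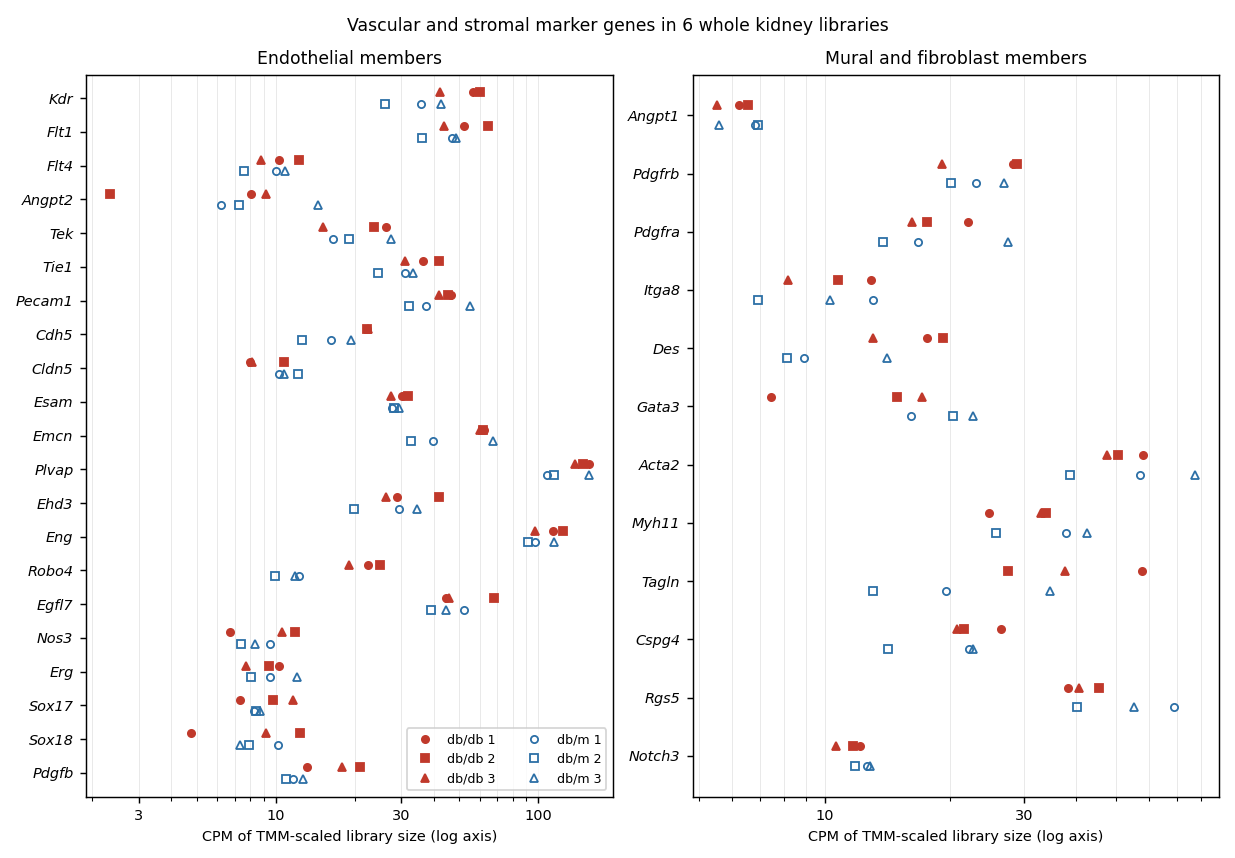
CPM of each marker in the 6 libraries on log axes, endothelial markers on the left and the rest on the right, db/db filled above db/m open, with a symbol for each replicate number. Robo4, Cdh5 and Pdgfb are the rows in which the filled and open points do not overlap.

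Of platelet-derived growth factor B and the 2 receptors of its family, 0 were called. Pdgfb, the endothelial ligand, measured 13.1, 20.98 and 17.9 CPM in db/db, against 11.6, 10.9 and 12.7 CPM in db/m. Every db/db library was higher, the lowest only slightly, and the log2 fold change of 0.56 (SE 0.18) had adjusted p = 0.0604. Pdgfrb, its receptor on mural cells and fibroblasts, averaged 25.5 ± 5.48 CPM in db/db and 23.3 ± 3.39 CPM in db/m (adjusted p = 0.638). Pdgfra, the receptor that marks fibroblasts, averaged 18.6 ± 3.04 CPM in db/db and 19.3 ± 7.21 CPM in db/m (adjusted p = 0.899).

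Of the 3 mesangial markers 0 were called, with 2 positive fitted values and 1 negative. Des, the muscle intermediate filament desmin, measured 17.6, 19.2 and 13.0 CPM in db/db and 8.90, 8.12 and 14.1 CPM in db/m. Db/m replicate 3 was above db/db replicate 3, so the groups overlapped, and the log2 fold change was 0.68 (SE 0.25, adjusted p = 0.0839). Itga8, the integrin chain of mesangial cells, averaged 10.6 ± 2.38 CPM in db/db and 10.1 ± 3.08 CPM in db/m (adjusted p = 0.857). Gata3, a transcription factor of mesangial cells that is also made in the collecting duct and urothelium, measured 7.42, 14.9 and 17.1 CPM in db/db and 16.1, 20.3 and 22.7 CPM in db/m (log2 fold change -0.58, SE 0.30, adjusted p = 0.187). It had the lowest fold of the 33. The collecting duct markers examined were Aqp2, Aqp3, Scnn1b, Scnn1g and Hsd11b2. In the same libraries these 5 summed to 583 to 730 CPM in db/db and 905 to 1372 CPM in db/m. Aqp2, the largest part of each sum, fell, at 338 ± 82.3 CPM in db/db and 720 ± 171 CPM in db/m. The other 4 were not called, and of the 5 fitted values 1 was positive, that of Scnn1b. The 5 urothelial markers, Upk1a, Upk1b, Upk2, Upk3a and Krt5, summed to 1.35 to 43.2 CPM in db/db and 30.7 to 83.6 CPM in db/m, all but Upk1a at 0 in db/db replicate 2, and none passed the test. The part of either in the values of Gata3 was not tested.

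Smooth muscle and pericyte markers split by gene, 2 positive and 4 negative, with 0 called in either direction by edgeR and 0 at an unadjusted p below 0.05. Tagln (SM22), an actin-binding protein of contractile cells, measured 57.6, 27.5 and 37.6 CPM in db/db and 19.5, 13.1 and 34.6 CPM in db/m. Its log2 fold change of 0.87 was the second largest of the 33, but replicates differed so much that the interval ran from -0.04 to 1.78 (adjusted p = 0.143). Acta2, smooth muscle actin, measured 57.8, 50.5 and 47.6 CPM in db/db and 56.9, 38.7 and 77.5 CPM in db/m, so the db/db values all lay between those of db/m (adjusted p = 0.665). Myh11, smooth muscle myosin, averaged 30.6 ± 5.02 CPM in db/db and 35.4 ± 8.64 CPM in db/m (adjusted p = 0.475).

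Rgs5, a pericyte regulator of G protein signalling, measured 38.4, 45.5 and 40.7 CPM in db/db and 68.9, 40.3 and 55.1 CPM in db/m. Db/m replicate 2 fell within the db/db range and both other db/m libraries were above it, and the log2 fold change was -0.40 (SE 0.19, adjusted p = 0.157). Cspg4 (NG2), a pericyte proteoglycan, averaged 22.9 ± 3.09 CPM in db/db and 19.6 ± 4.71 CPM in db/m. Notch3, the Notch receptor of mural cells, averaged 11.5 ± 0.788 CPM in db/db and 12.4 ± 0.526 CPM in db/m, with an interval of -0.38 to 0.16 on the log2 scale.

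The highest marker by level, and the 2 lowest, were the same genes in both groups. Divided by exon length (GENCODE M21, GRCm38), Plvap was highest at 74.3 CPM per kb in db/db and 63.7 in db/m. Eng and Acta2 held the second and the third rank in db/db, at 27.6 and 23.7 CPM per kb, and in db/m Acta2 was ahead of Eng at 26.3 and 25.0. The lowest in both were Angpt1, at 1.17 CPM per kb in db/db and 1.23 in db/m, and Flt4, at 1.27 and 1.15. Between these, Gata3 ranked 23 of 33 in db/db and 13 in db/m, Myh11 21 in db/db and 14 in db/m, Robo4 19 in db/db and 25 in db/m, and Kdr 12 in db/db and 18 in db/m. The annotation the submitters counted on was not given in the sources used here, so these lengths are approximate. Exons of 11 markers overlap a gene on the other strand, among them Tagln, Nos3 and Eng, and whether counting used the strand was not stated.

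Within each group, certain libraries were the highest or the lowest for more than an even share of the markers. Within db/db, replicate 2 was the highest of its group for 18 of the 33 markers and replicate 3 the lowest for 21. Within db/m, replicate 3 was highest for 25 markers and replicate 2 lowest for 24. Over all tested genes the same libraries held these places for 38.1%, 30%, 34.5% and 27.4%. The 7 adipocyte markers, Adipoq, Cfd, Plin1, Cidec, Fabp4, Lep and Retn, summed to 73.1, 71.3 and 374 CPM in db/db and 70.9, 52.0 and 177 CPM in db/m. Their sum was highest in replicate 3 of both groups, with Cfd at 0 in db/db replicate 2. Fabp4 made up the largest part of each sum, at 68.3, 70.6 and 234 CPM in db/db and 65.6, 48.7 and 109 CPM in db/m. Outside replicate 3 of both groups the sums were nearly all Fabp4, and the cells its RNA came from were not tested. Adipoq measured 0.521, 0.0792 and 19.2 CPM in db/db and 1.34, 0.506 and 13.6 CPM in db/m. Lep differed from the sum, at 0.160, 0 and 0 CPM in db/db and 0.872, 0.278 and 15.6 CPM in db/m. Of the 5 adipocyte markers tested, 0 were called by edgeR. The 33 marker genes were thus mostly high in db/m replicate 3 and low in db/db replicate 3, and the part of adipose RNA in this was not tested.

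**Figure D4:**
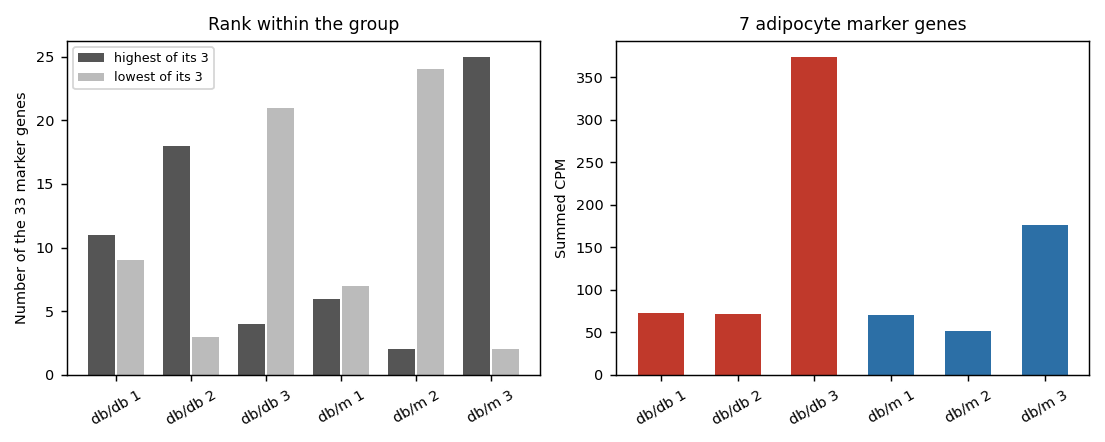
Left, how many of the 33 markers were highest or lowest in each library among the 3 of its group. Right, the summed CPM of 7 adipocyte markers per library. Db/m replicate 3 was highest for 25 markers and db/db replicate 3 lowest for 21. Both had the highest adipocyte marker sum of their group, 177 and 374 CPM, of which Fabp4 made up 109 and 234 CPM.

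Single libraries decided calls for several markers. Without db/m replicate 3, 7 markers were called higher, Cdh5, Des, Emcn, Kdr, Plvap, Robo4 and Tagln, with 20.8% of all genes called. Without db/db replicate 1, Pdgfb joined Robo4 (log2 fold change 0.73, adjusted p = 0.0214). Without db/m replicate 2, Rgs5 was called lower (log2 fold change -0.58, adjusted p = 0.0369). Without replicate 3 of both groups 4 were higher, Des, Emcn, Kdr and Robo4, and the median of the markers was 0.36, with 10.4% of all genes called. The choice of test and of scaling mattered as well. The DESeq2 Wald test called 6 higher, Cdh5, Des, Kdr, Pdgfb, Robo4 and Tagln, with 29.5% of all genes called. With total counts only, which moved the median log2 fold change of all genes by over 0.2, to -0.32, the marker median was -0.12, Robo4 was still higher and Cldn5, Notch3 and Rgs5 were lower (adjusted p = 0.0323, 0.044 and 0.0267). In each of these settings the markers' median stayed above that of all genes.

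Genes that work with these markers differed at about the background rate. Of 121 tested genes in related lists, 12 rose and 11 fell, or 19%, beside 24.0% of all genes. Among the VEGF ligands and co-receptors 0 of 7 rose and 1 fell, Vegfb, and Vegfa, the main ligand of Kdr, averaged 204 ± 14.8 CPM in db/db and 213 ± 35.3 CPM in db/m, a log2 fold change of -0.06 (adjusted p = 0.742). In the Notch pathway 0 of 12 rose and 2 fell, Notch2 and the ligand Jag1, with Jag1 at 8.65 ± 1.94 CPM in db/db and 16.6 ± 1.30 CPM in db/m. Of the 3 other platelet-derived growth factors, Pdgfd rose and 0 fell. Of 8 endothelial receptors and targets of bone morphogenetic protein and TGF-beta, 0 rose and Tgfbr3 fell. By edgeR 0 of 10 other endothelial transcription factors and 0 of 7 arterial genes were called, with 2 and 4 at an unadjusted p below 0.05. The 2 factors, Ets1 and Elk3, were lower. Of the 4 arterial genes Sema3g, Efnb2 and Bmx were lower and Fbln5 was higher. Fitted values were 5 positive and 5 negative for the factors. For the arterial genes they were 2 positive and 5 negative, with a median of -0.43.

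A few genes listed as venous and capillary endothelial, outside the 33, rose in db/db. Which cells their RNA came from cannot be read from whole kidney counts. Of 9 tested venous and capillary genes 4 rose, Esm1, Apln, Aplnr and Igfbp3, and 2 fell, Nr2f2 (adjusted p = 0.0483) and Ephb4 (adjusted p = 0.0419), beside 13.1% higher and 10.8% lower of all genes. Both falls are outside the rule for named genes and were chosen after their values were seen. Nr2f2 lost its call in 9 of the 16 alternative settings and Ephb4 in 8, which for Nr2f2 included leaving out any 1 library but db/db replicate 3, and for Ephb4 any 1 but db/db replicate 2. Esm1 (endocan), a secreted proteoglycan of sprouting endothelium, measured 22.9, 16.8 and 12.2 CPM in db/db and 5.48, 3.19 and 3.67 CPM in db/m (log2 fold change 2.08, SE 0.29, adjusted p = 0.00348). The peptide ligand Apln and its receptor Aplnr had log2 fold changes of 1.70 (SE 0.27) and 2.07 (SE 0.36), and Igfbp3, which binds insulin-like growth factors, had 1.42 (SE 0.22). Of 20 other endothelial markers, Ramp3, a partner of the adrenomedullin receptor, and Gpihbp1, the capillary anchor of lipoprotein lipase, rose and 0 fell. Fitted values of the 20 went both ways, 11 positive and 9 negative. The groups did not overlap for 3 higher and 3 lower genes of the 20, beside 22.4% and 22.2% of all tested genes. Ramp3 measured 29.7, 37.3 and 28.4 CPM in db/db and 16.4, 14.7 and 14.4 CPM in db/m.

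Of 6 genes on the glomerular endothelial list 1 rose and 2 fell, and of 4 lymphatic genes 0 rose and 1 fell, beside 13.1% higher and 10.8% lower of all genes. Whether counts this small differ from those shares was not tested. Sost, a secreted inhibitor of Wnt signalling that is on the glomerular endothelial list, measured 0.321, 0.515 and 0.109 CPM in db/db and 3.38, 2.78 and 4.31 CPM in db/m (log2 fold change -3.46, SE 0.48, adjusted p = 0.00319). Cyp26b1, which breaks down retinoic acid, was the other fall on that list, and Nostrin, which binds Nos3, was the rise. Prox1 was the lymphatic gene that fell, while Lyve1 was under 1 CPM in every library. These genes are not confined to endothelium in the body, and whole kidney counts do not show which cells they came from.

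On the mural and stromal side, Kcnj8, a pericyte potassium channel subunit, measured 14.6, 11.4 and 10.4 CPM in db/db and 2.91, 1.62 and 2.83 CPM in db/m (log2 fold change 2.32, SE 0.27, adjusted p = 0.00183). Of the 7 tested genes of its list the angiotensin receptor Agtr1a also rose and Serpine2 fell. Whole kidney counts do not show which cells the RNA of these genes came from. Of 11 other smooth muscle genes Mylk, the myosin light chain kinase, rose and 0 fell. Of 18 other fibroblast genes Col1a1 rose and the stromal and podocyte factor Tcf21 fell. Of 2 renin cell genes, 0 were called, with Ren1 at 103, 164 and 68.8 CPM in db/db and 85.9, 80.1 and 51.5 CPM in db/m. Of 6 leukocyte markers 0 were called by edgeR, and fitted values were positive for 1, Csf1r, and negative for 5. Their sums were 56.1 to 84.2 CPM in db/db and 31.3 to 62.4 CPM in db/m. Csf1r made up most of each sum, at 57.2 ± 14.3 CPM in db/db and 34.0 ± 10.9 CPM in db/m. Beside the counts of these lists stand 13.1% higher and 10.8% lower of all tested genes, and whether the lists differ from those shares was not tested. Whether cell numbers changed was not tested.

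Of the 21 related genes named by the rule, 8 were called in all 16 alternative settings: Apln, Aplnr, Esm1, Igfbp3, Jag1, Kcnj8, Ramp3 and Sost. The other 13 lost the call in at least 1 setting. Leaving out db/db replicate 1 ended the calls on Agtr1a, Col1a1, Gpihbp1, Mylk, Nostrin, Pdgfd, Prox1, Tgfbr3 and Vegfb. Leaving out db/db replicate 2 ended those on Agtr1a, Col1a1, Cyp26b1, Gpihbp1, Mylk, Nostrin and Tgfbr3, and leaving out db/db replicate 3 those on Col1a1, Cyp26b1, Gpihbp1, Pdgfd, Serpine2, Tgfbr3 and Vegfb. Without db/m replicate 1 the calls on Col1a1, Mylk, Pdgfd and Vegfb ended, without db/m replicate 2 those on Agtr1a, Col1a1, Gpihbp1, Mylk, Nostrin, Pdgfd and Vegfb, and without db/m replicate 3 those on Gpihbp1 and Pdgfd.

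**Figure D5:**
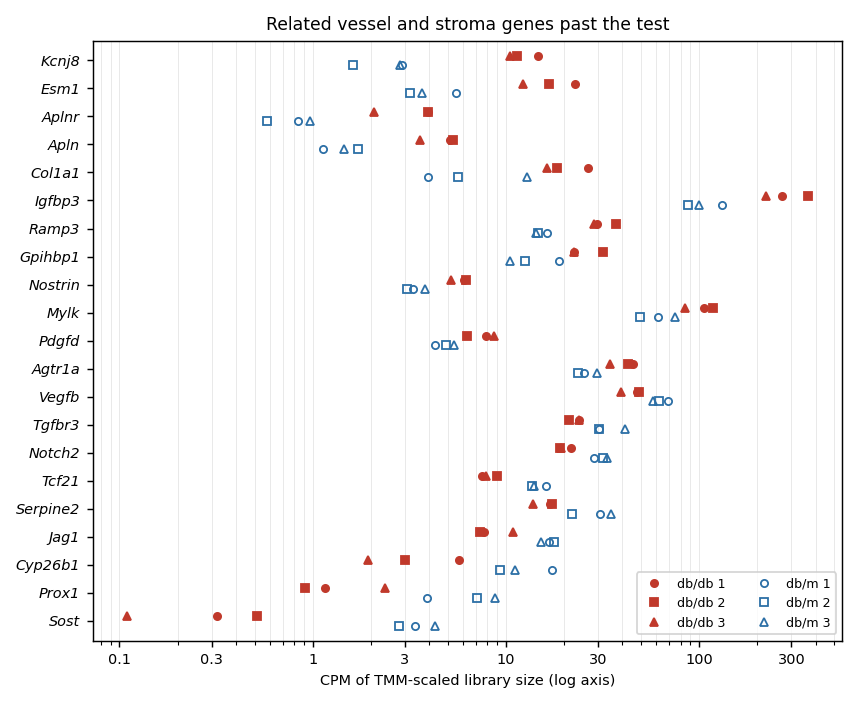
CPM on a log axis of the 21 related genes named by the rule, db/db filled above db/m open, ordered by log2 fold change from Kcnj8 at 2.32 to Sost at -3.46. In all 21 the db/db and db/m points do not overlap, beside 44.6% of all tested genes. The 21 were chosen by the test on these same libraries, so the lack of overlap is no further support.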

How the data were processed

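The authors deposited a single table of raw counts, 1 whole number for each gene symbol and library. The submitters' processing notes name DESeq2, StringTie, SAMtools, HISAT2, FastQC and fastp, with no version and no role. Per the labels' protocols, poly(A) RNA was captured with oligo(dT) and the libraries keep strand. Build, annotation and how reads were counted: not given in the sources used here. Columns were matched to libraries by name, db1 being read as db/db1 and so on.

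Genes were filtered with filterByExpr, scaled with TMM factors (0.901 to 1.12) and compared with the edgeR quasi-likelihood test (edgeR 4.0.16, R 4.3.3), with Benjamini-Hochberg adjustment over all 16373 genes tested and a call at adjusted p below 0.05. CPM are counts over the TMM-scaled library size, errors are the SD over 3 libraries, the SE is the log2 fold change over the square root of F, and 95% intervals use it with the moderated degrees of freedom. Log2 fold changes are db/db over db/m. Alternatives were other scalings, DESeq2 1.42.0, limma-voom (limma 3.58.1), other filters, mitochondrial genes left out, a replicate block and libraries left out.

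The members and lists were chosen with earlier results of these data known. All 33 markers are described. Of each related list, genes past the test are named, at most 4 by smallest p, with 2 more of the venous and capillary list that were chosen after their values were seen. Same-numbered libraries did not deviate together (correlation of deviations -0.15, 0.0574 and 0.143), and no label says that a number marks a shared animal, litter or batch.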

Additional observations from a re-analysis of the deposited data

How the results depend on the processing

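Robo4 kept its direction and its call in all 16 settings. Of the 33 markers 16 kept their direction in all of them, 17 changed sign in at least 1, and 22 were not called in any. With total counts only, 3 markers and 4876 genes in all were lower and 1073 genes higher, the marker median was -0.124, and not-called markers turned negative: Flt4 (-0.121), Tek (-0.215), Pecam1 (-0.163), Esam (-0.191), Plvap (-0.0428), Ehd3 (-0.0515), Eng (-0.124), Egfl7 (-0.0376), Nos3 (-0.0553), Sox17 (-0.0819), Sox18 (-0.207), Pdgfrb (-0.136), Itga8 (-0.181) and Cspg4 (-0.0347). This scaling moves all genes by construction. With limma-voom Sox18 was at -0.0184 and Pdgfra at 0.0125. DESeq2 called 6 markers higher. With TMM-scaled sizes the ratios of summed shares were 1.12 (all), 1.18 (endothelial), 0.989 (mural) and 1.02 (Pdgfra, Pdgfrb and Angpt1). With the replicate block, 1313 genes were higher and 973 lower, Sox18 was at -0.0182 and Robo4 remained the 1 marker called. No label says whether the numbers pair the libraries. Without both libraries numbered 3, 1052 genes were higher and 660 lower, 4 markers were higher, the marker median was 0.361, and Erg (0.17), Sox18 (-0.0736), Pdgfra (0.384) and Acta2 (0.185) changed sign. Leaving out single libraries gave 1 to 7 markers higher and 0 to 1 lower, 1374 to 2011 genes higher and 851 to 1523 lower. Markers that changed sign there ranged from -0.104 to 0.301 (Tek), -0.135 to 0.317 (Itga8), -0.0116 to 0.402 (Ehd3), -0.27 to 0.353 (Sox18), -0.234 to 0.0664 (Erg), -0.242 to 0.298 (Pdgfra), -0.0457 to 0.367 (Pecam1) and -0.366 to 0.13 (Acta2). Where no construction is named, the cause was not tested. With 3 libraries a group, changes under 2-fold were often within the interval, and counting error was small at these depths.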
